A study of Rattus norvegicus with 24 samples.

Results

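Among kidneys of outbred CD rats (Sprague Dawley), 52 of the 32883 genes in the count table differed strongly from one rat to the next inside a single group. A gene was taken when, among the 3 non-pregnant rats (CD-NP) or among the 3 rats at day 18 of pregnancy (CD-P18), its highest level was at least 5 CPM (counts scaled to a library of 1000000) and at least 6 times the lowest level plus 0.2 CPM. One identifier was left out by the rule. These genes were thus chosen by their measured CPM, and their spread in the group that chose them is given as a description with no test. CD-NP gave 42 members and CD-P18 gave 20, of which 10 were chosen in both.

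The study compared the renal transcriptome of healthy pregnancy in CD rats with that of Brown Norway (BN) rats, an inbred strain used as a model of complicated pregnancy. RNA came from cross-sections of kidney, holding cortex and medulla, of females aged 2 months. There were 4 groups of 3 rats, CD-NP, CD-P18, BN-NP and BN-P18, with NP for non-pregnant and P18 for pregnancy day 18. The rats within a group were separate animals, and each library held between 8274159 and 11879451 reads assigned to genes. Kidney markers were present in every library: Slc34a1, the sodium-phosphate cotransporter of the proximal tubule, ranged from 1456 to 3065 CPM, and Podxl, a podocyte sialomucin, from 459 to 654 CPM.

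Outbred stocks keep allelic differences between individuals, whereas animals of an inbred strain are close to genetically identical. A gene whose mRNA level follows its local alleles can be almost silent in one outbred animal and high in another. A kidney section can also hold a varying amount of pelvis, fat, vessel or adrenal tissue, and genes of such tissues then move together from one section to the next in any strain. These are background statements, and neither was tested as a source of the values that follow.

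A symbol could be paired with 7 members: Akr1c2, Cyp2b2, Aldh1b1, Fam111a, RT1-N2, Nwd2 and Lrguk. The other 45 are known here by Ensembl identifier only. Of the 7, 2 are enzymes of steroid and drug metabolism that were almost absent in some CD rats, and Fam111a had the highest levels of the named members that were expressed in most CD rats. The 150 bases before the RefSeq start of these 3 genes are printed here as the region where transcription begins, on build GRCr8, with each CG dinucleotide in capitals. All 7 symbols were found in the RefSeq promoter table. The GRCr8 assembly is of the BN strain, so these letters are not those of the CD rats.
Akr1c2, chr17:70717881-70718030, minus strand: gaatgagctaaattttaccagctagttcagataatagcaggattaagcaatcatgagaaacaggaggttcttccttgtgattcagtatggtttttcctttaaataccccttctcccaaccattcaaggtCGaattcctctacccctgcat
Cyp2b2, chr1:90722131-90722280, plus strand: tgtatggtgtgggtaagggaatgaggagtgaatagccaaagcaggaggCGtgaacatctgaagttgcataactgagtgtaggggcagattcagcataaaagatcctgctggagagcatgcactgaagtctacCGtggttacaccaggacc
Fam111a, chr1:219065489-219065638, plus strand: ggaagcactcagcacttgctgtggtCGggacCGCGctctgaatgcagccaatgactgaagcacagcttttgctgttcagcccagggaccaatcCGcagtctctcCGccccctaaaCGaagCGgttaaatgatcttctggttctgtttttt

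The window of Akr1c2 held 1 CG, that of Cyp2b2 held 2 and that of Fam111a held 7. Over the 33469 windows of the table the median was 4, and 29.0% had 1 or fewer, 41.0% had 2 or fewer and 67.4% had 7 or fewer. The 3 genes thus differ in CG content and do not share a CG-rich start.

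Akr1c2, an aldo-keto reductase of a family that reduces steroids and other carbonyl compounds, had the largest ratio of all members. In CD-P18 its level was 256 CPM in rat 1, 247 in rat 2 and 1.03 in rat 3, a ratio of 208. In CD-NP the values were 0.194, 0.309 and 0.331 CPM, resting on 2, 3 and 3 reads. The gene was therefore high in 2 of 6 CD rats and close to silent in the other 4, and the CD rats of the same pregnancy stage fell on both sides. The BN rats were high throughout, with 254, 183 and 143 CPM in BN-NP and 285, 272 and 243 CPM in BN-P18, and the largest ratio within a BN group was 1.77. Akr1c1, a close relative and the next gene along chromosome 17 in GRCr8, was close to silent in no rat. Its CD levels were 111, 109 and 93.5 CPM in CD-NP and 223, 204 and 147 CPM in CD-P18. CD-P18 rats 1 and 2 were thus its highest CD rats too, but its ratio in CD-P18 was 1.51. Its BN levels ran from 173 to 280.0 CPM. The gene after it, RGD1564865, measured 186, 200.4 and 159.6 CPM in CD-P18 and at most 128 CPM in CD-NP and 89.9 CPM in BN. Reads shared between such relatives may be split or lost in counting, so the exact level of Akr1c2 is uncertain.

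Cyp2b2, a cytochrome P450 of the phenobarbital-inducible family, showed the reverse arrangement between strains. It stood at 0, 0.206 and 7.72 CPM in CD-NP and at 0.0842, 32.0 and 38.0 CPM in CD-P18. Both CD groups thus held rats without appreciable signal beside rats with it, and the ratio reached 134 in CD-P18 and 38.6 in CD-NP. No BN rat exceeded 0.121 CPM, which is 1 read, so any Cyp2b2 message in BN kidney was at the limit of this depth. Cyp2b genes are near copies of each other, so reads that fit several of them may be missing here.

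Aldh1b1, a mitochondrial aldehyde dehydrogenase, was chosen in CD-P18, where it measured 1.35, 5.75 and 0.516 CPM. In CD-NP it measured 4.76, 2.37 and 1.21 CPM. Its BN values lay between 7.25 and 12.5 CPM, above every CD rat, and the largest ratio within a BN group was 1.29. Unlike Akr1c2, its CD rats were graded between the extremes instead of falling into a high and a low set.

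Fam111a, a protease that acts at stalled replication forks and restricts viral replication, was the most abundant named member in CD-NP. Its level was 167 and 132 CPM in CD-NP rats 1 and 2 and 4.85 CPM in rat 3, a ratio of 33.1. In CD-P18 it was high in all 3 rats, at 241, 114 and 258 CPM. The BN rats measured between 1.28 and 2.74 CPM, so the single low CD rat was still above each of them. The neighbouring genes with a symbol, Mpeg1, Glyat and Glyatl2, had ratios of 1.34, 1.16 and 1.28 in CD-NP, so they did not share the low value of rat 3.

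RT1-N2, a non-classical class I gene of the rat major histocompatibility complex, was low in the same animal. CD-NP values were 22.7, 24.1 and 2.54 CPM, while CD-P18 values were 32.9, 36.9 and 24.8 CPM. BN values ran from 3.30 to 5.15 CPM, and the low CD rat lay under all of them. Of the class I genes nearby, RT1-N3 had a ratio of 1.04 in CD-NP and RT1-S3 a ratio of 1.28. Class I genes of this complex are multicopy and polymorphic, so the assignment of reads to RT1-N2 is uncertain.

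Nwd2, a protein with NACHT and WD-repeat domains, was nearly absent from 10 of 12 libraries. It measured 12.9 and 9.02 CPM in CD-P18 rats 1 and 2, from 153 and 80 reads, and between 0 and 0.331 CPM in every other rat. The 2 rats with Nwd2 were the same 2 CD rats that had Akr1c2, although the genes lie on chromosomes 14 and 17 and Nwd2 had no such level in BN. Lrguk, a leucine-rich repeat protein with a guanylate kinase domain known from sperm development, had 81, 89 and 3 reads in CD-P18, the last being 0.310 CPM, and 7.28, 2.58 and 1.65 CPM in CD-NP. The BN rats had at most 0.483 CPM of Lrguk, and CD-P18 rat 3 lay within their range. Of the genes near Lrguk with a symbol, Slc35b4, the next one, had a ratio of 1.38 in CD-P18. Akr1b7, 9 genes away in GRCr8, was also higher in CD than in BN. It ranged from 12.4 to 55.6 CPM in CD-NP and from 48.2 to 112 CPM in CD-P18, and reached at most 5.82 CPM in BN.

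**Figure D1:**
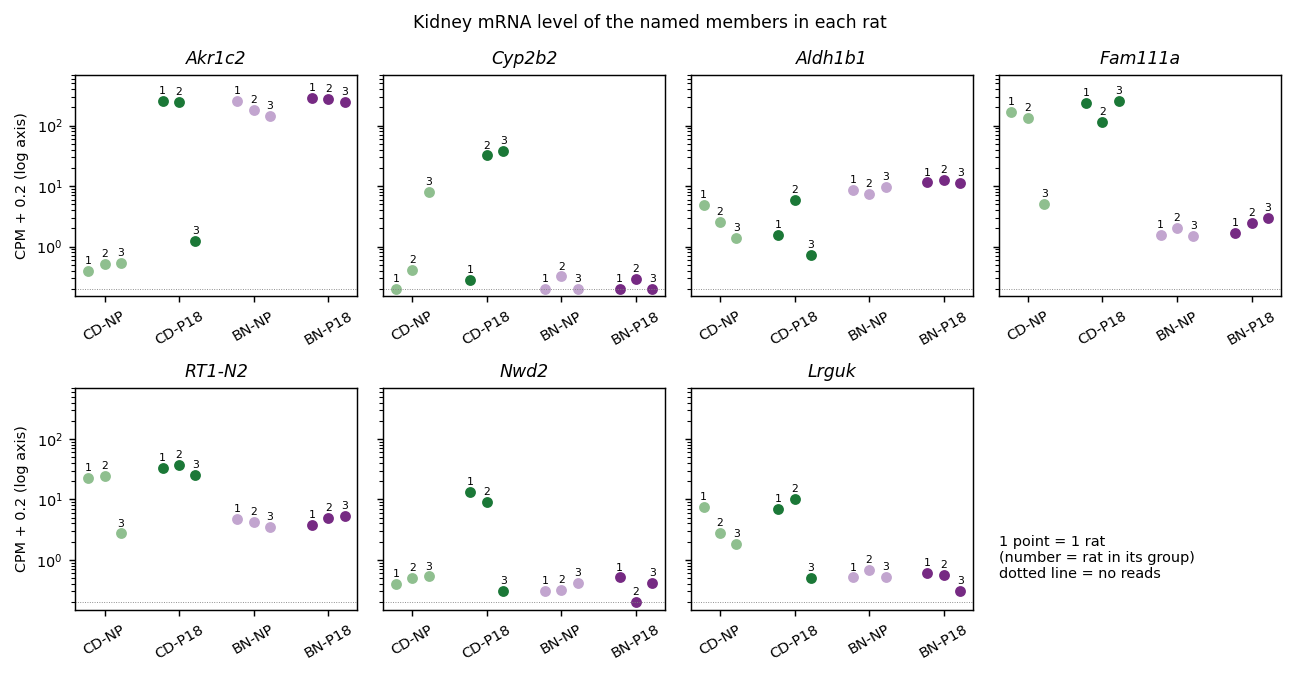
Level of the 7 named members in each of 12 rats, as CPM + 0.2 on a log axis, with 1 point per rat. Akr1c2 was at 256, 247 and 1.03 CPM in the 3 CD-P18 rats and between 143 and 285 CPM in all BN rats, and Fam111a fell to 4.85 CPM in CD-NP rat 3 alone among the CD rats.

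The unnamed members with the largest ratios behaved in 2 ways. In CD-NP, ENSRNOG00000010079 measured 121, 0.825 and 2.76 CPM, a ratio of 118, and ENSRNOG00000015086 measured 21.5, 0 and 0.551 CPM, a ratio of 107. Both also varied in BN: the BN-P18 values were 22.5, 3.35 and 26.7 CPM for ENSRNOG00000010079 and 23.7, 1.02 and 3.07 CPM for ENSRNOG00000015086. In CD-P18, ENSRNOG00000019050 measured 8.75, 0 and 0 CPM and ENSRNOG00000049961 measured 0, 4.40 and 6.40 CPM. No BN rat held more than 0.107 CPM of ENSRNOG00000019050 or 0.831 CPM of ENSRNOG00000049961, so these 2 had no appreciable level in BN to vary.

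A further pair was singled out after its values were seen. ENSRNOG00000021896 stood at 20.1 CPM in CD-NP rat 3 and at no more than 0.194 CPM in the 11 other libraries. ENSRNOG00000001980 went the other way, with 7.06 CPM in CD-NP rat 3 against 221 CPM or more in the 5 other CD rats and 57.6 to 147 CPM in BN. With Fam111a and RT1-N2, the same animal was thus the outlying one of its group for these 4 members, low in 3 and high in 1.

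Values on either side of the limit were close, as in any choice by a threshold. In CD-NP the 3 members nearest to it had ratios of 6.01, 6.20 and 6.23, and the 3 genes just outside had 5.95, 5.77 and 5.59. In CD-P18 the corresponding ratios were 6.04, 6.54 and 6.60 inside and 5.55, 5.41 and 5.23 outside, the last being a member through CD-NP.

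The BN rats, whose values the rule did not use, give the comparison. In CD the rule was met by 0.362% of the 11593 genes that reached 5 CPM in CD-NP and by 0.174% of the 11494 in CD-P18. Applied to BN, it was met by 9 genes in BN-NP (0.0783% of 11501) and by 21 in BN-P18 (0.181% of 11583). BN-P18 therefore held about as many strongly varying genes as CD-P18, and BN-NP held fewer than CD-NP. Of the 24 genes that met the rule in a BN group, 12 were members and 12 were not.

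Those 12 members were a minority of the 52, and the other 40 met the rule in no BN group. Part of these 40 could not meet it, because no BN rat reached the 5 CPM that the rule asks for. Fam111a, for example, was at most 2.74 CPM in BN. The count of 40 is therefore no measure of evenness within BN. By their BN values the members fell into 4 sets. Of the 52, 8 stayed under 1 CPM in all 6 BN rats, among them Cyp2b2, Nwd2 and Lrguk. A further 11 differed less than 2-fold within both BN groups, with Akr1c2, Fam111a, RT1-N2 and Aldh1b1 among them. The 12 that met the rule again had no symbol, and the remaining 21 lay between. With 0.2 CPM added to both levels, the larger ratio was that of CD in 48 of 52 members, a direction favoured by how the members were chosen.

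**Figure D2:**
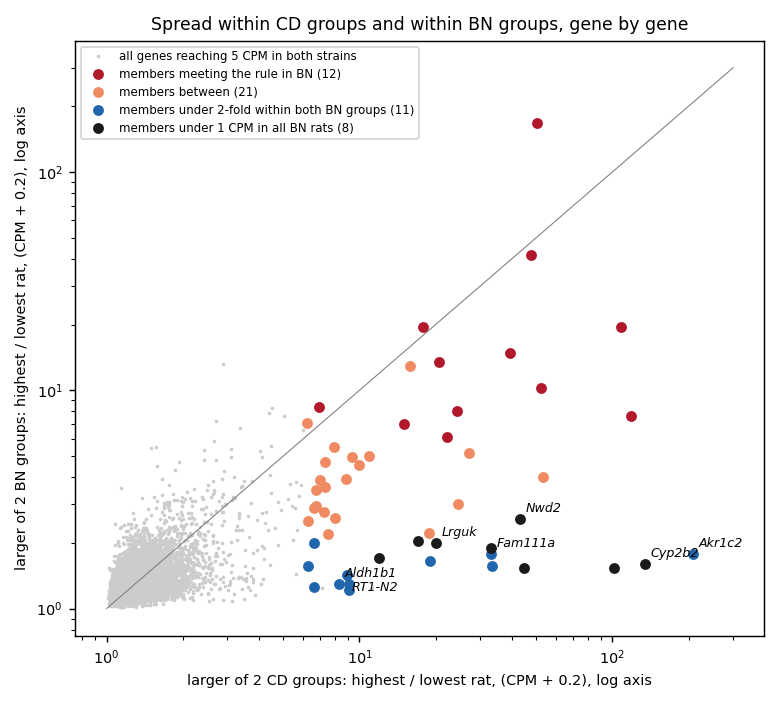
Ratio of the highest to the lowest rat, each with 0.2 CPM added, in whichever CD group (x axis) and BN group (y axis) had the larger ratio, on log axes. Grey points are all genes reaching 5 CPM in both strains, and the 4 colours divide the 52 members into 12 that met the rule in BN, 21 between, 11 under 2-fold in BN and 8 under 1 CPM in BN.

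How far the spread recurred was read in the groups that a choice had not used. The rule was met again by 10 of the 42 CD-NP members in CD-P18 (23.8%), by 7 among the BN-NP rats (16.7%) and by 11 among the BN-P18 rats (26.2%). Of the 20 members from CD-P18, 10 met it in CD-NP (50.0%), while 2 did so among BN-NP rats and 4 among BN-P18 rats. All these shares lie above the background shares of under 0.4% given above. Among the members that reached 5 CPM in the group concerned, those chosen in CD-NP had a median log2 ratio of highest to lowest rat of 1.68 in CD-P18, where it was 0.21 over all genes at that level. For the BN-NP rats it was 1.94 against 0.24, and for the BN-P18 rats 2.19 against 0.25. For the CD-P18 choice it was 4.09 in CD-NP, against 0.25 over all genes, but 0.61 in BN-NP and 1.19 in BN-P18. These medians leave out members too low to reach 5 CPM.

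One rat carried much of the choice in CD-NP. Rat 1 was the highest of its group in 32 of the 42 members, rat 2 in 6 and rat 3 in 4, while rat 2 was the lowest in 24 and rat 3 in 15. Without CD-NP rat 1, 9 genes met the rule in CD-NP, and without rat 2 or 3 there were 28 and 29. Overall 26 of the 52 members were still chosen without CD-NP rat 1, and the count of members meeting the rule in BN went from 12 to 4. In CD-P18 the extremes were spread more evenly, with rat 2 the highest in 10 members, rat 3 in 6 and rat 1 in 4. Among the genes meeting the rule in BN-P18, rat 3 was the highest in 16 of 21.

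**Figure D3:**
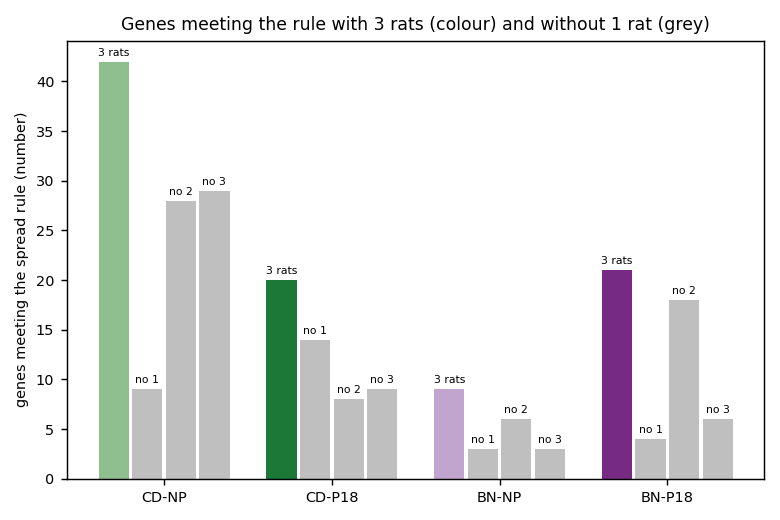
Number of genes meeting the spread rule in each group with all 3 rats (coloured bars) and with 1 rat left out (grey bars, labelled by that rat). CD-NP fell from 42 to 9 genes without rat 1, CD-P18 from 20 to 8 without rat 2, BN-NP from 9 to 3 without rat 1 or rat 3, and BN-P18 from 21 to 4 without rat 1.

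Many members rose and fell together over the rats. Members were grouped by average linkage on Pearson correlation of log2(CPM + 0.2) over all 12 rats, cut at a correlation distance of 0.4. The largest groups held 15, 9 and 6 genes, and only groups of at least 6 are described as such. The 22 members outside them fell into groups of at most 3 genes or stood alone. The groups were formed from the same values that are described here, BN rats included, so they carry no test. The groups of 15 and 9 held all 12 members that met the rule in BN, with 6 in each, and none of the other 28 members did. Some of these 28, among them Cyp2b2, Nwd2, Lrguk and Fam111a, never reached 5 CPM in BN and so could not meet it. Neither the group of 15 nor the group of 9 has a member with a symbol.

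The group of 15 was highest in CD-NP rat 1 among the CD rats and was high in 3 of the 6 BN rats. Relative to each gene's mean over the 12 rats, its mean log2 level was 1.61 in CD-NP rat 1, with an SD over genes of 0.68, against -1.72 and -1.76 in rats 2 and 3. In CD-P18 it was -1.12, 0.10 and -1.04. In BN-NP it was -0.24 in rat 1 and 1.77 in rat 3, with rat 2 near the latter, and in BN-P18 it was -1.05, 0.14 and 1.82. Each strain and each stage thus held rats at either end, but not each group. CD-P18 reached no more than 0.10 and BN-NP no less than -0.24, and CD-NP rat 1 alone made the high end in CD. The BN ratio of the 15 genes ranged from 3.49 to 168 with a median of 5.02.

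The group of 9 followed another order of rats. It stood at 2.22, -2.86 and -1.83 in the 3 CD-NP rats and at -1.15, 1.16 and -1.24 in the CD-P18 rats. In BN it was 0.62, 2.16 and -0.12 in BN-NP and 2.15, -1.14 and 0.02 in BN-P18. CD-NP rat 1 and BN-NP rat 2 were high for both groups, while BN-P18 rat 1 was the lowest of its group for the 15 genes and the highest for the 9. All 9 genes were lowest of their group in CD-NP rat 2. Without CD-NP rat 1, 1 of the 15 and 4 of the 9 were still chosen.

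Marker lists of tissues that a kidney section could hold were looked up beside these groups, but few of their genes had a symbol. Of 12 urothelium markers 2 were identified, Krt5 and Krt14, keratins of basal epithelial cells. Their summed level was at most 0.971 CPM in the CD-NP rats and 2.14 CPM in the CD-P18 rats, whereas the 6 BN rats lay between 2.39 and 4.83 CPM. Krt5 measured 0.680, 0.206 and 0 CPM in CD-NP, and 1.04, 4.11 and 1.81 CPM in BN-NP. Over the 12 rats its correlation with the group of 15 was 0.80 and with the group of 9 was 0.66, values that share library, depth and a strain difference. The correlations of Krt14 were 0.46 and 0.38, and in BN-NP it measured 1.35, 0.725 and 1.71 CPM, lowest in rat 2, where Krt5 and both groups were high. Krt5 was at 0 in 1 rat and at low read numbers elsewhere.

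The only adipocyte marker identified of 14 was Cidea, a lipid-droplet protein. It ranged from 3.20 to 7.87 CPM among CD-NP rats, from 1.01 to 3.72 CPM among CD-P18 rats and from 4.38 to 10.3 CPM over the 6 BN rats. Its correlation was 0.60 with the group of 9 and 0.39 with the group of 15. The only smooth muscle marker identified of 8, Synm, an intermediate filament protein, ranged from 31.9 to 48.8 CPM over the 12 rats. Its correlation was 0.71 with the group of 15 and 0.76 with the group of 9. The only adrenal cortex marker identified of 11, Akr1b7, had correlations of -0.52 with the group of 15 and -0.25 with the group of 9. With the group of 6 its correlation was 0.89, a value that shares a strain difference. Akr1b7 is also in the list of drug and steroid enzymes used further on. No adrenal medulla, skeletal muscle or nerve marker had an identifier. Genes of lists for no such tissue had correlations as high. With the group of 15 they were 0.77 for Krt19 of the kidney injury list and 0.76 for Hsph1 of the heat shock list. The enzyme Cyp4a1 had 0.75 with the group of 9. Other genes of those lists were lower, such as Havcr1 at 0.16 and Hspe1 at -0.20 with the group of 15, and the enzyme Cyp2d5 at -0.48 with the group of 9. The part of such tissues in the spread of these 24 members was not tested.

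Outside the fixed lists, the named genes most like each group were sought among 2840 genes with a symbol that reached 2 CPM. For the group of 15 these were Crabp2 and Gcnt1, each with a correlation of 0.87, followed by Atp1b2 at 0.86. Crabp2, a retinoic acid carrier, measured 0.680, 0.206 and 0.110 CPM in CD-NP and 0.313, 0.930 and 3.29 CPM in BN-P18. For the group of 9 the closest were Casp4, an inflammatory caspase, at 0.79 and Ncbp1 at 0.78. The range of these named genes differed: Crabp2 ran from 0.103 to 3.30 CPM over the 12 rats, and Gcnt1, a glycosyltransferase, from 9.48 to 25.1 CPM. For the group of 6 the closest were Srsf12 at 0.93 and RT1-T24-1 at 0.91, values that share a strain difference. RT1-T24-1 measured 3.21, 2.47 and 1.54 CPM in CD-NP, lowest in rat 3 as RT1-N2 was, and at most 1.32 CPM in BN.

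**Figure D4:**
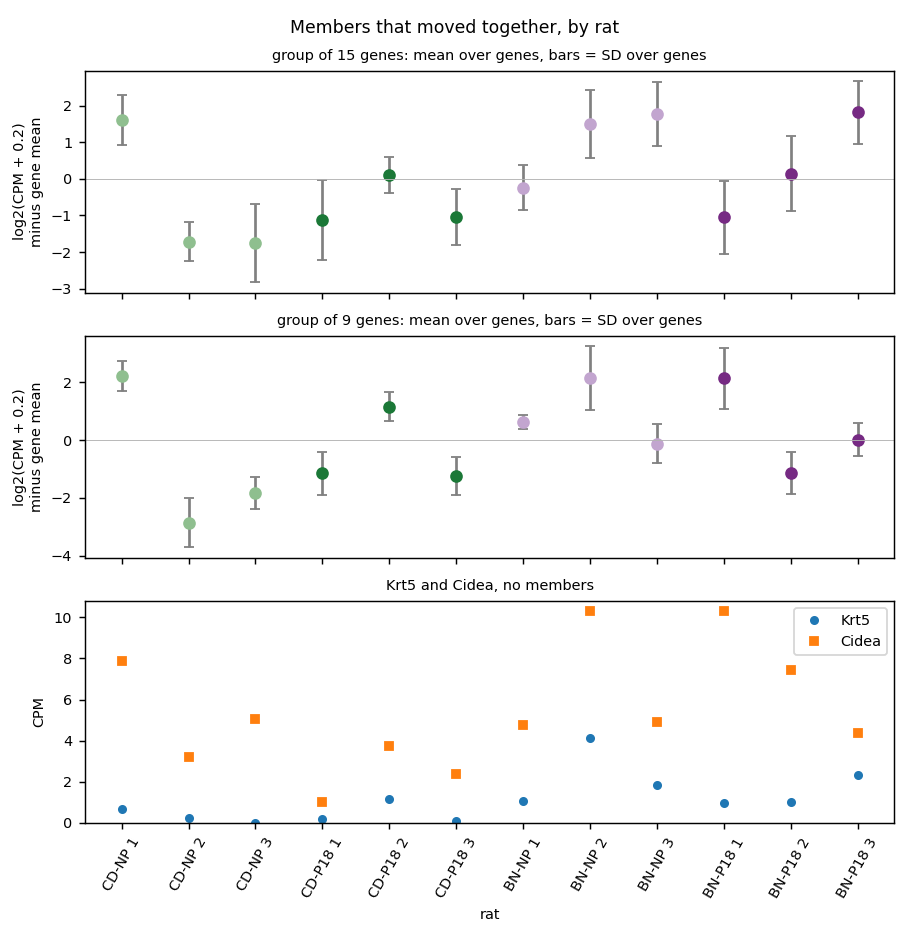
Mean log2 level of the group of 15 and the group of 9 in each rat, relative to each gene's mean over the 12 rats, with bars for the SD over genes, and the CPM of Krt5 and Cidea below. The group of 15 stood at 1.61 in CD-NP rat 1, 1.77 in BN-NP rat 3 and 1.82 in BN-P18 rat 3, and the group of 9 at 2.22 in CD-NP rat 1, 2.16 in BN-NP rat 2 and 2.15 in BN-P18 rat 1.

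The group of 6 contained Fam111a, RT1-N2 and Lrguk with 3 unnamed genes, and differed mainly between strains. Its mean relative level lay between -1.56 and -1.28 in the 6 BN rats. In CD it was 2.44, 0.92 and -0.85 in CD-NP and 2.54, 1.49 and 1.72 in CD-P18, so CD-NP rat 3 was the lowest CD rat and all CD rats were above the BN rats. The SD over genes reached 2.23 in CD-P18 rat 3, where Lrguk was low and Fam111a high. The BN ratios of these 6 genes were between 1.43 and 2.20. In BN, Lrguk was at most 0.483 CPM and the unnamed ENSRNOG00000062177 at most 0.208 CPM. With 0.2 CPM added to both levels, values so low give small ratios and do not show evenness.

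The 22 members outside these groups had no order of rats common to all of them. Smaller groups lay among them. Akr1c2, Aldh1b1 and ENSRNOG00000014387 formed a group of 3 genes, and Cyp2b2 formed a pair with ENSRNOG00000049961. The 22 included Akr1c2, Cyp2b2, Aldh1b1 and Nwd2, and 6 of the 8 members under 1 CPM in BN. The CD ratios of these 22 ran from 6.26 to 208 and their BN ratios from 1.21 to 3.60, so the most extreme CD ratio of all members stood beside small BN ratios. For the 6 under 1 CPM in BN, the low level itself keeps the BN ratio small.

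**Figure D5:**
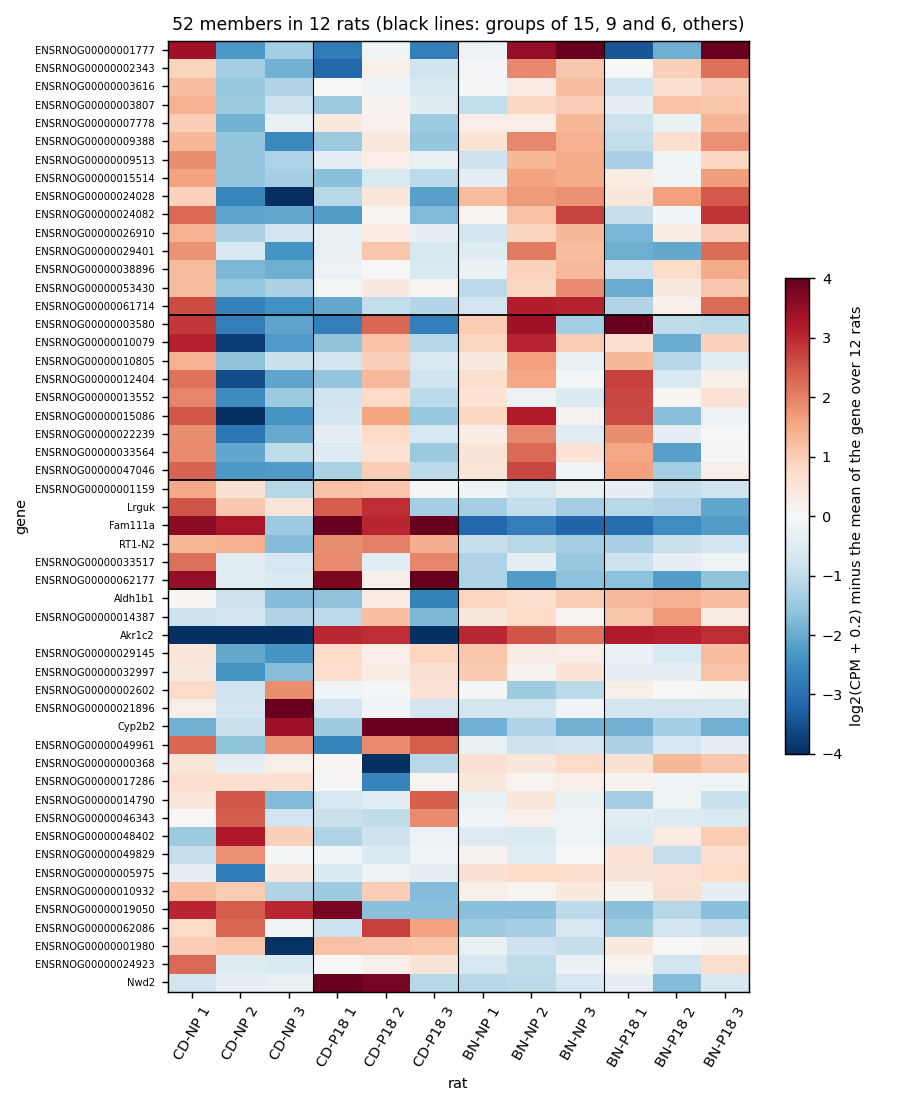
Level of the 52 members in 12 rats as log2(CPM + 0.2) minus each gene's mean over the rats, in rows of genes and columns of rats. Black lines separate the groups of 15, 9 and 6 genes and the 22 others; CD-NP rat 1 is high for all genes of the first 2 groups, and Akr1c2 is low in 4 of 6 CD rats.

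Pregnancy was compared in BN, whose levels took no part in the choice. The fit, however, took the spread of each gene from all 12 libraries, so the CD values that chose the members also set their errors. The edgeR quasi-likelihood test over 14212 genes called 199 of them (1.40%), taking an adjusted p under 0.1 and an absolute log2 change over 0.32. Of the 52 members 50 passed the filter on low counts, and Nwd2 and ENSRNOG00000021896 did not. None of the 50 was called by edgeR, none had an unadjusted p under 0.05, where 10.2% of all genes did, and DESeq2 called none. A fit of the 6 BN libraries alone, which no CD value enters, also called none of the 43 members it tested. It gave 9 of these 43 an unadjusted p under 0.05, beside 10.5% of all genes, with 6 higher and 3 lower in BN-P18, and the smallest adjusted p of a member was 0.108. The members' median log2 fold change of BN-P18 over BN-NP was -0.14, and that of all genes was 0. In the fit of the BN libraries alone Akr1c2 was 0.43 on the log2 scale with an SE of 0.19 (edgeR adjusted p = 0.462), Fam111a 0.50 with an SE of 0.32 (edgeR adjusted p = 0.676), and Aldh1b1 0.44 with an SE of 0.15 (edgeR adjusted p = 0.292). With all 12 libraries the SE of Akr1c2 was 0.77, that of Fam111a 1.70 and that of Aldh1b1 0.46, and the adjusted p were 0.911, 0.956 and 0.835.

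None of the 24 gene lists looked up beside the members held one of them, so no listed gene could meet the spread rule in CD, and the values of related genes are given as background. Of 52 enzymes of drug and steroid metabolism, 26 had a symbol and 23 of these reached 5 CPM in each CD group. Their largest ratios in CD, with 0.2 CPM added to both levels, were 5.02 for the sulfotransferase Sult1b1 in CD-P18 and 4.44 for the aldo-keto reductase Akr1b7 in CD-NP. Of the 25 tested between BN-P18 and BN-NP, 1 rose and 3 fell by edgeR. Cyp2e1, an ethanol-oxidising P450, fell by 0.65 on the log2 scale with an SE of 0.09 (edgeR adjusted p = 0.00805), and the glutathione transferase Gsta1 rose by 0.62 with an SE of 0.13 (edgeR adjusted p = 0.0427). Of the 12 histocompatibility genes with a symbol, of 24 listed, the largest ratio was 3.71 for the class II gene RT1-Bb in CD-NP. By edgeR 3 of these 12 rose in pregnant BN rats, RT1-S3, RT1-N3 and RT1-CE7, and none fell, and RT1-N2 was 0.14 on the log2 scale with an SE of 0.63 (edgeR adjusted p = 0.969), or of 0.23 from the BN libraries alone (edgeR adjusted p = 0.897).

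The comparisons that include CD rats use the values that chose the members and are given as descriptions. Between CD-P18 and CD-NP, 2 members were called, beside 4.71% of all genes tested: Akr1c2, higher in CD-P18, and an unnamed gene, lower. Akr1c2 was nevertheless at 1.03 CPM in 1 of the 3 pregnant CD rats, so the groups are separated by the 2 high rats. Between the strains, 7 members were called among non-pregnant rats, beside 8.38% of all genes, with 2 higher and 5 lower in BN. Among pregnant rats 10 members were called, beside 9.60%, with 2 higher and 8 lower in BN. Fam111a, RT1-N2 and Lrguk were lower in BN and Aldh1b1 higher in BN at both stages, while Akr1c2 was called higher in BN among non-pregnant rats, where no CD rat was high, and was not called among pregnant rats.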

How the data were processed

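The authors sequenced stranded, ribosome-depleted RNA of 12 kidneys, aligned it with STAR 2.5.2 to Rnor_6.0, a BN assembly, and deposited HTSeq 0.6.1 counts per Ensembl gene. Of the entries in each library, 42.1% to 47.1% aligned to several places, 28.2% to 31.4% met no gene, and 24.4% to 27.5% fell on genes. The 5 summary rows were left out. Genes with near copies, and CD alleles unlike the BN assembly, may therefore be undercounted; this was not tested. The methylation files were not used here, because no annotation of their build was at hand.

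CPM were counts over the column sum of genes. An offset of 0.2 CPM corresponded to 1.65 to 2.38 reads. Symbols were paired with identifiers by matching fold changes and mean levels in the study's gene table, where 2995 of 3064 symbols paired 1 to 1; its fold changes served for matching only. The 52 members and the marker lists were chosen with earlier results of these data known. Named were members with a symbol, plus for each CD group the 2 unnamed members with the largest ratios. One edgeR 4.0.16 quasi-likelihood fit (R 4.3.3, TMM, filterByExpr, all 12 libraries) gave Benjamini-Hochberg adjusted p over 14212 genes; DESeq2 1.42.0 was an alternative. The fit was tested on simulated counts in which all genes had the same dispersion. That test therefore does not show how the fit behaves on genes that vary as the members do. Promoter sequences are RefSeq GRCr8, a build other than that of the counts.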

Additional observations from a re-analysis of the deposited data

Results flagged for a closer look

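The fitted change of Akr1c2 with pregnancy in BN, as log2 of BN-P18 over BN-NP, minus that in CD was -8.75, with an SE of 1.90. A difference between strains by the edgeR interaction term (adjusted p = 0.0713) drew attention to it. CD values chose this gene and the CD change rests on 2 of 3 pregnant rats, so that p is no independent test. With each of the 12 rats left out in turn the difference lay between -9.33 and -8.27, and the edgeR adjusted p was at or above 0.1 in 8 of the 12, reaching 0.177. Without CD-P18 rat 3, the pregnant CD rat low in Akr1c2, the difference was -9.33 and the edgeR adjusted p 2.19e-07. That fit leaves out the value that made the gene a member, so it is no independent test either.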

How the results depend on the processing

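The number of members, 52, was 34 with an offset of 1 CPM, 90 at 4-fold, 29 at 10-fold and 101 with a highest level of at least 2 CPM. Leaving out 1 CD rat gave 26 to 50, the lowest without CD-NP rat 1. The 12 members meeting the rule in BN were 23 at 4-fold, 7 at 10-fold, 23 with at least 2 CPM and 4 to 12 without 1 rat. The 10 chosen in both CD groups were 5 with an offset of 1 CPM, 4 at 10-fold, 5 with at least 10 CPM and 3 to 7 without 1 CD rat.

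For pregnancy in BN, 199 genes were called, with 352 when low counts were not filtered, 70 at an adjusted p under 0.05 and a log2 change over 0.58, 128 from the 6 BN libraries alone, and 27 to 228 without 1 BN rat, the lowest without BN-NP rat 1. No member was called under any of these, but the fit of the 6 BN libraries put 9 of 43 members at an unadjusted p under 0.05, against 0 of 50 with all 12. A replicate block gave 351 calls and again 0 members. Correlations of same-numbered rats ran from -0.12 to 0.33 in BN and from -0.06 to 0.11 in CD. In BN 4 of 6 rats, and in CD 2 of 6, correlated best with their own number. These values do not settle whether the replicate numbers carry a structure in BN.

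Alternatives for the comparisons with CD rats were chosen after seeing the data. Members called between CD-P18 and CD-NP, 2, were 7 without a filter, 1 with at least 1 CPM in all 12 libraries, 1 at the stricter thresholds and 1 to 7 without 1 rat. Between strains the 7 in non-pregnant rats became 20 without a filter, 3 with at least 1 CPM in all libraries, 3 at the stricter thresholds and 2 to 20 without 1 rat. The 10 in pregnant rats became 18, 3 and 7 to 12 under no filter, at least 1 CPM and leaving out 1 rat. With 3 rats a group, 1 animal can decide whether a gene varies, and the causes of these shifts were not tested. The planned methylation alternatives were not run.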
